A study of Mus musculus with 6 samples.

Results

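Synaptic vesicle and exocytosis genes were examined in neuroblastoma xenografts of mice treated with BL-8040, which blocks the chemokine receptor CXCR4, and of control mice. The set is a fixed list of 36 genes of vesicle release, drawn up with earlier results of these data known. All 36 were found among the 18417 human genes that the array annotation names singly. Each of the 36 is read by a single probe set, so no choice between probe sets was involved.

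All tumours grew from SK-N-BE(2) cells, 1 established human neuroblastoma line with amplified MYCN, injected into the adrenal gland of NSG mice, which lack T, B and natural killer cells. In the BL-8040 group (3 mice), 400 µg was given under the skin on 14 consecutive days, beginning on day 7 after the cells. The control group (3 mice) carried the same xenograft; their treatment and the age of any animal were not given in the sources used here. The RNA of each tumour was read on 1 human gene array, and values are log2 signals, on which 1 unit is a doubling.

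A nerve or endocrine cell releases its transmitter when a vesicle docks at the plasma membrane, is primed, and fuses with it as calcium enters. Fusion is driven by SNARE proteins on both membranes. RAB3 proteins, active zone scaffolds, UNC13 and complexins prepare and hold the vesicle, synaptotagmins sense calcium, and dynamin, amphiphysin and synaptojanin retrieve the membrane afterwards. Neuroblastoma arises from the sympathetic lineage, whose mature cells store catecholamines in dense-core vesicles released by much of the same machinery.

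None of the 36 genes passed the test. At a Benjamini-Hochberg adjusted p under 0.05 in limma, 0 of the 36 genes and 0 of all 18417 genes (0%) differed between BL-8040 and control tumours, and the smallest adjusted p over all genes was 0.644. At an unadjusted limma p under 0.05, 6 of the 36 were lower after BL-8040, or 16.7%, against 5.08% of all genes, and 0 were higher, against 2.64% of all genes. The 6 were SYNPR, RAB3A, SYT4, CADPS2, AMPH and RUNDC3A. In 6 genes, with CPLX1 in place of RAB3A, all 3 BL-8040 values lay below all 3 control values, where 9.05% of all genes did so; in 0 of the 36 did they lie above, where 4.93% of all genes did. RUNDC3A was placed in the list with its lower value known from an earlier look at these arrays, and without it both counts of lower genes are 5 of 35. Both counts include dim genes: SYNPR, SYT4, CPLX1, CADPS2 and AMPH lay below the median signal of all genes. Of the 18 genes at or above it, 2 were lower at an unadjusted limma p under 0.05, RAB3A and RUNDC3A (11.1%, against 3.93% of all genes as bright), and only RUNDC3A had non-overlapping groups (5.56%, against 8.16%).

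The 36 genes differed by a median of -0.07 log2 units, BL-8040 minus control, where the median over all genes was -0.02. In 25 of the 36 (69.4%) the difference was below 0, as in 58.5% of all genes. The differences ran from -0.64 in RUNDC3A to 0.10 in PCLO. The 95% interval contained 0 in every gene but the 6 named, and it lay wholly between -0.3 and 0.3 in 18 of the 36, against 56.3% of all genes. Without BL-8040 replicate 3 the median was -0.02 and without BL-8040 replicate 2 it was -0.12.

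**Figure D1:**
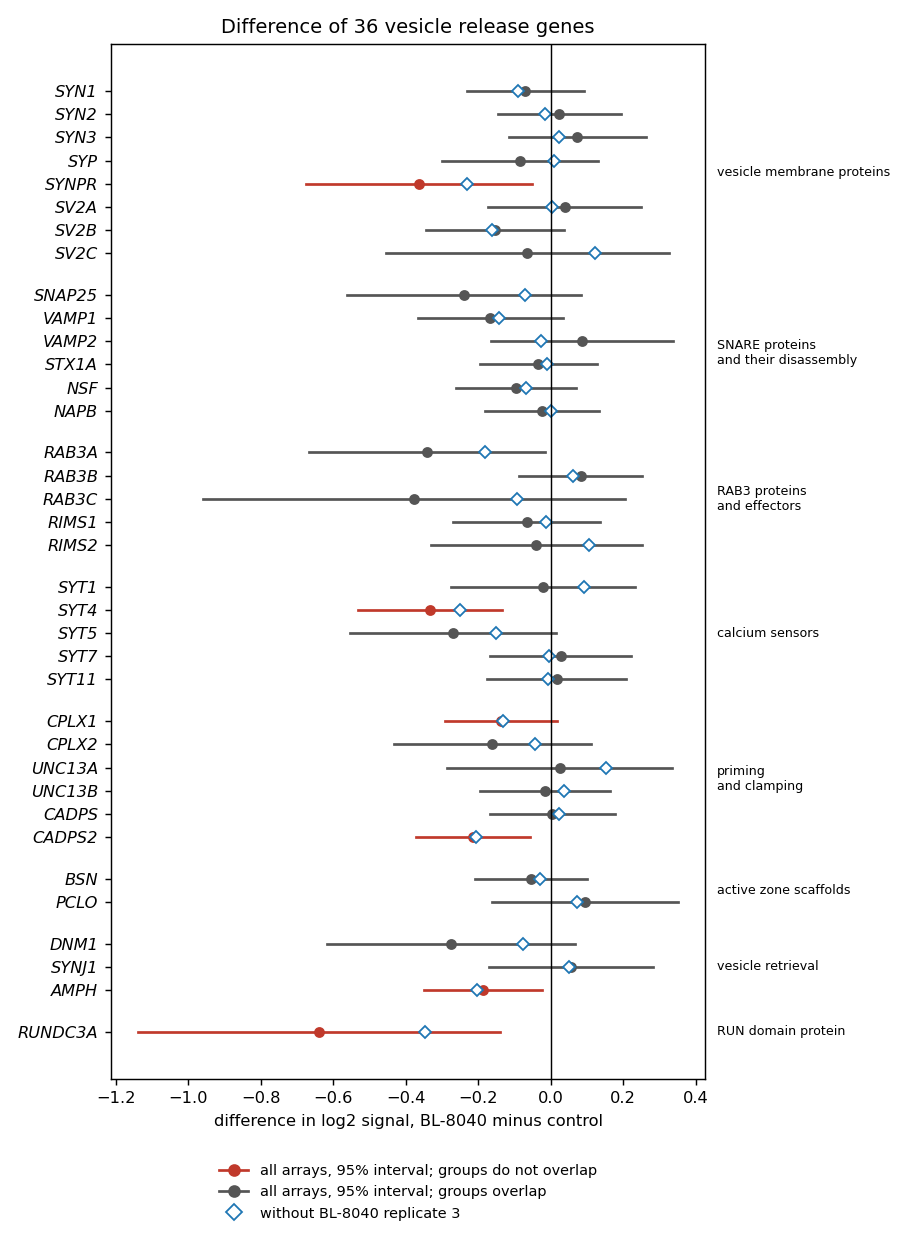
Difference in log2 signal, BL-8040 minus control, for the 36 genes in order of role (points, with 95% intervals of the limma fit; n = 3 arrays per group) and the same difference without BL-8040 replicate 3 (open diamonds). The 6 genes in red, which run from CPLX1 at -0.14 to RUNDC3A at -0.64, are those whose groups do not overlap; the diamonds of SNAP25, RAB3C and DNM1 lie much nearer to 0 than their points.

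Among the proteins of the vesicle membrane, SYNPR had the largest difference. It encodes synaptoporin, a relative of synaptophysin. Its values were 4.97, 4.98 and 4.58 in BL-8040 replicates 1, 2 and 3, against 5.06, 5.10 and 5.45 in control replicates 1, 2 and 3. The groups did not overlap, but BL-8040 replicates 1 and 2 lay close under the lowest controls. The SYNPR difference was -0.36 ± 0.14 (SE), its 95% interval ran from -0.68 to -0.05, and limma gave an adjusted p of 0.644. It was -0.23 without BL-8040 replicate 3 and -0.24 without control replicate 3, the arrays that held the lowest and the highest value.

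SYP, the gene of synaptophysin and a common histological marker of neuroendocrine tumours, averaged 6.16 ± 0.16 in BL-8040 and 6.25 ± 0.07 in control tumours (SD, n = 3 each). Its difference of -0.08 had an interval from -0.30 to 0.13. The synapsins, phosphoproteins that tether vesicles into a reserve pool, were close in the treated and control arrays. SYN2, whose signal was the brightest of the family's probe sets by rank (percentile 93.5 of all genes), stood at 8.97, 8.96 and 9.09 after BL-8040, against 8.95, 9.06 and 8.95 in controls. The interval of its difference ran from -0.15 to 0.19, that of SYN1 from -0.23 to 0.09 and that of SYN3 from -0.12 to 0.26. Among the SV2 glycoproteins, SV2A, the binding site of the drug levetiracetam, differed by 0.04, SV2B by -0.15 and SV2C by -0.06. SV2C had values from 7.26 to 7.87 after BL-8040, against 7.40 to 7.85 in controls, so the groups overlapped almost fully. SV2B lay at percentile 7.15 of all genes.

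The SNARE genes and the genes of SNARE disassembly were lower in 5 of 6 cases, where 58.5% of all genes were lower. At an unadjusted p under 0.05 in limma, 0 of them were lower, against 5.08% of all genes. SNAP25, a SNARE of the plasma membrane and the target of botulinum toxin A, had the largest difference of this class. Its values were 7.49, 7.57 and 7.03 after BL-8040, against 7.75, 7.60 and 7.45 in controls. BL-8040 replicates 1 and 2 lay within the range of the controls and replicate 3 below it. The SNAP25 difference was -0.24 ± 0.14 (SE; interval from -0.56 to 0.08; limma adjusted p = 0.683), and -0.07 without BL-8040 replicate 3.

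STX1A, the syntaxin that pairs with SNAP25, differed by -0.03, with an interval from -0.19 to 0.13. The vesicle SNAREs pointed to opposite sides: VAMP1 differed by -0.17 (interval -0.37 to 0.03) and VAMP2 by 0.09 (interval -0.17 to 0.34). VAMP2 was 7.24, 7.00 and 7.46 after BL-8040, against 7.13, 7.11 and 7.19 in controls, with BL-8040 replicate 3 the highest of the 6 tumours. NSF, the ATPase that takes spent SNARE complexes apart, differed by -0.10 (interval -0.26 to 0.07); the human genome holds a partial copy of this gene that its probe set may also read. NAPB, an adaptor of NSF, differed by -0.02.

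RAB3A, the main small GTPase of synaptic vesicles, was among the 6 genes at an unadjusted p under 0.05. Its values were 7.32, 7.39 and 6.88 after BL-8040, against 7.50, 7.73 and 7.38 in controls. BL-8040 replicate 2 lay just above control replicate 3, so the groups overlapped. The RAB3A difference was -0.34 ± 0.14 (SE), its interval ran from -0.67 to -0.01, and limma gave an adjusted p of 0.644. It was -0.18 without BL-8040 replicate 3.

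RAB3C had the largest difference of its class and the widest interval of the 36 genes. Its values were 5.84, 6.01 and 5.07 after BL-8040, against 6.32, 6.17 and 5.56 in controls. In both groups replicate 3 was the lowest, and BL-8040 replicates 1 and 2 lay above control replicate 3. The RAB3C difference of -0.38 ± 0.26 (SE; interval from -0.96 to 0.20; limma adjusted p = 0.708) was -0.09 without BL-8040 replicate 3, -0.23 without control replicate 1 and -0.61 without control replicate 3. RAB3B, at percentile 12.9 of all genes, differed by 0.08. The RIM genes encode active zone proteins that bind RAB3: RIMS1 differed by -0.07 (interval -0.27 to 0.14) and RIMS2 by -0.04 (interval -0.33 to 0.25).

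SYT4 ranked first of the 36 genes by p, and 102nd of all 18417. It encodes a synaptotagmin found on dense-core vesicles, with a substitution at a calcium-binding position of its first C2 domain. Its values were 4.06, 4.17 and 3.87 after BL-8040, against 4.37, 4.36 and 4.36 in controls. The 3 controls were almost equal and all 3 treated tumours lay below them. The SYT4 difference was -0.33 ± 0.09 (SE), a level of 0.794 times the control, its interval ran from -0.53 to -0.13, and limma gave an adjusted p of 0.644. It lay between -0.40 and -0.25 whichever array was left out. Its mean signal was at percentile 22.1 of all genes.

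SYT5, a calcium sensor of dense-core vesicles, was 6.15, 6.38 and 5.92 after BL-8040, against 6.29, 6.59 and 6.39 in controls. BL-8040 replicate 2 lay among the controls and the other treated values below them. The SYT5 difference was -0.27 ± 0.13 (SE; interval from -0.55 to 0.02; limma adjusted p = 0.646), and -0.15 without BL-8040 replicate 3. SYT1, the fast calcium sensor of synaptic vesicles, averaged 8.61 ± 0.22 in treated and 8.63 ± 0.09 in control tumours (SD, n = 3 each). Its difference was -0.02, with an interval from -0.28 to 0.23. SYT7, a slow sensor of high calcium affinity, differed by 0.03 (interval -0.17 to 0.22) and SYT11, which shares the substitution of SYT4, by 0.02 (interval -0.18 to 0.21).

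**Figure D2:**
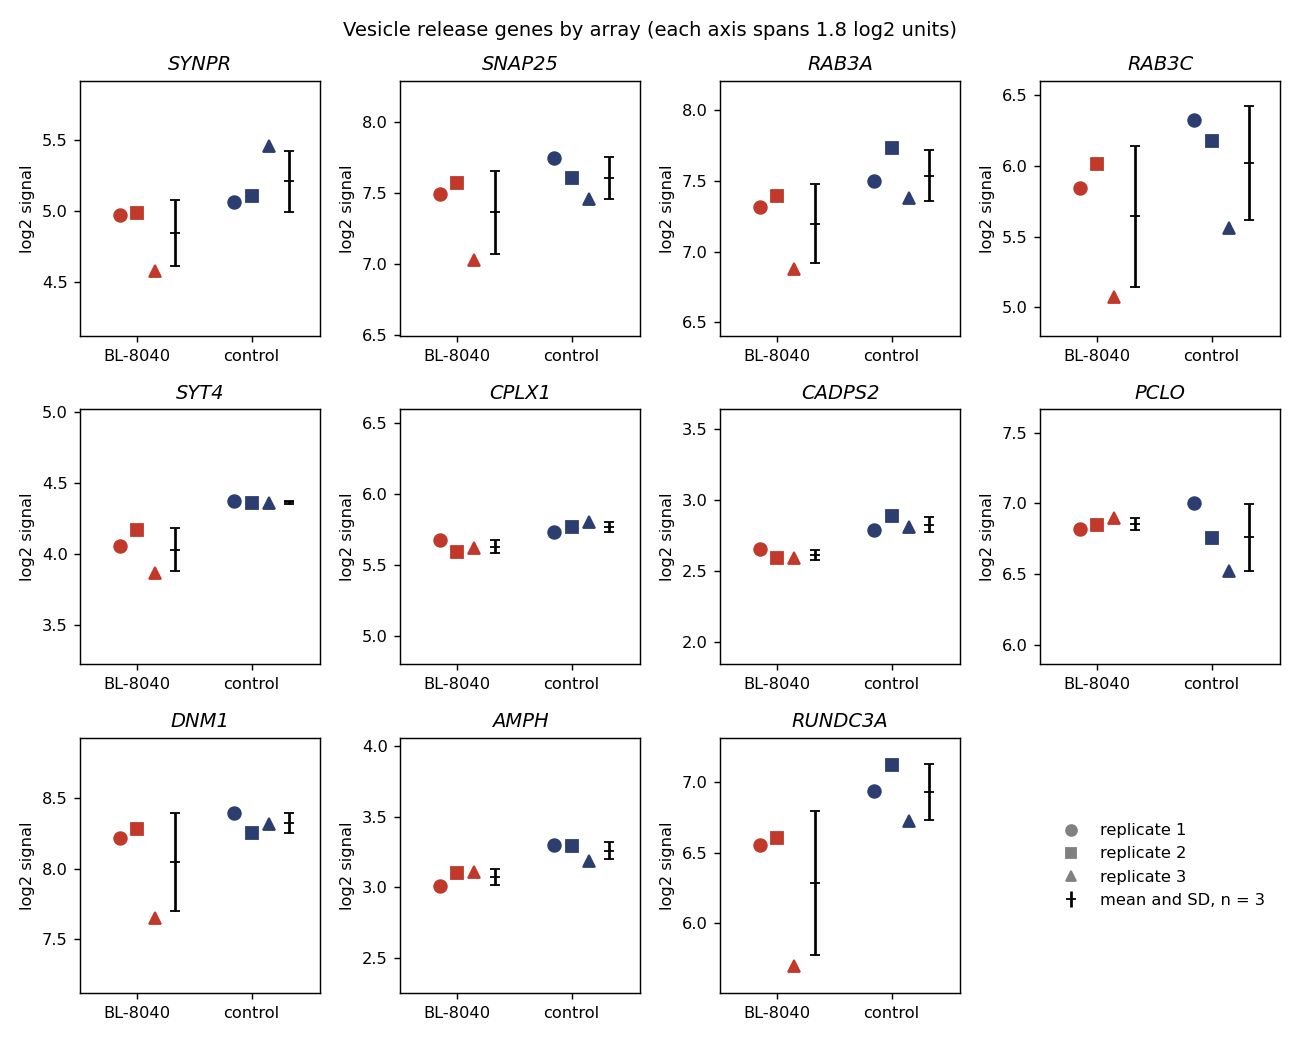
Log2 signal of 11 genes in each of the 6 tumours, BL-8040 left and control right, with mean and SD (n = 3 each); the y axes have the same length but different ranges. They are the 7 genes with non-overlapping groups or an unadjusted limma p under 0.05, and SNAP25, RAB3C, PCLO and DNM1, each the largest difference of its role class. In SNAP25, RAB3C and DNM1 the groups overlap and BL-8040 replicate 3 lies apart at the bottom; in CPLX1, CADPS2 and AMPH the 3 values of each group lie close together.

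Of the genes that prime a docked vesicle or clamp it before fusion, CPLX1 and CADPS2 had groups that did not overlap. CPLX1, a complexin, was 5.68, 5.59 and 5.62 after BL-8040, against 5.73, 5.76 and 5.80 in controls. The values within each group were close together and the gap between the groups was narrow. The CPLX1 difference was -0.14 ± 0.07 (SE), its interval ran from -0.29 to 0.02, and limma gave an adjusted p of 0.652. CADPS2, a paralogue of the dense-core vesicle priming factor CAPS, was 2.65, 2.59 and 2.59 after BL-8040, against 2.79, 2.89 and 2.81 in controls. The CADPS2 difference was -0.22 ± 0.07 (SE; interval from -0.37 to -0.06; limma adjusted p = 0.644). Its probe set lay at percentile 4.77 of all genes, and whether it measured any CADPS2 transcript is not known here, since no detection calls were used.

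CADPS, which encodes CAPS itself, differed by 0.00 at percentile 13.8 of all genes (interval -0.17 to 0.18). CPLX2, the other complexin, differed by -0.16 (interval -0.43 to 0.11), and by -0.04 without BL-8040 replicate 3. UNC13A and UNC13B, which open syntaxin for SNARE assembly, lay at 0.02 (interval -0.29 to 0.34) and -0.02 (interval -0.20 to 0.16). The scaffolds of the active zone were on opposite sides of 0: BSN, the gene of bassoon, differed by -0.05 (interval -0.21 to 0.10) and PCLO, that of piccolo, by 0.10. PCLO was 6.82, 6.85 and 6.90 after BL-8040, against 7.00, 6.75 and 6.53 in controls. The treated values lay inside the range of the controls. The PCLO difference of 0.10 ± 0.11 (SE; interval from -0.16 to 0.35; limma adjusted p = 0.829) was 0.22 without control replicate 1 and -0.02 without control replicate 3.

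Among the retrieval genes, DNM1, the dynamin that pinches vesicles off the membrane in neurons, was 8.21, 8.28 and 7.65 after BL-8040, against 8.39, 8.25 and 8.31 in controls. BL-8040 replicate 2 lay inside the range of the controls, replicate 1 just under it and replicate 3 far below. The DNM1 difference was -0.27 ± 0.15 (SE; interval from -0.62 to 0.07; limma adjusted p = 0.665), and -0.08 without BL-8040 replicate 3. AMPH, the gene of amphiphysin, which recruits dynamin, was 3.01, 3.10 and 3.11 after BL-8040, against 3.30, 3.29 and 3.19 in controls. The AMPH groups did not overlap, at a signal of percentile 9.86 of all genes. The AMPH difference was -0.19 ± 0.07 (SE; interval from -0.35 to -0.02; limma adjusted p = 0.644). SYNJ1, the lipid phosphatase that uncoats vesicles, differed by 0.06 (interval -0.17 to 0.28).

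RUNDC3A encodes a RUN domain protein of neurons and endocrine cells, first described as a partner of the small GTPase RAP2, and is no core part of the fusion machinery. Its values were 6.55, 6.61 and 5.70 after BL-8040, against 6.93, 7.12 and 6.73 in controls. BL-8040 replicates 1 and 2 lay just below the lowest control and replicate 3 far below every other tumour. The means were 6.29 ± 0.51 in treated and 6.93 ± 0.20 in control tumours (SD, n = 3 each). The RUNDC3A difference of -0.64 ± 0.22 (SE), a level of 0.642 times the control, had a 95% interval of -1.14 to -0.14 (limma adjusted p = 0.644). It was the largest of the 36 genes, also without BL-8040 replicate 3, when it was -0.35. As RUNDC3A joined the list with its lower value in these arrays already known, this rank is no independent result.

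BL-8040 replicate 3 stood apart in many of the vesicle genes. This tumour held the lowest of the 6 values in 20 of the 36 genes (55.6%), against 30.5% of all genes, and the highest in 3, SYN2, SYN3 and VAMP2, against 16.3% of all genes. Control replicate 1 held the lowest value of 0 of the 36 genes, against 13% of all genes, and control replicate 2 of 1, against 12.3%. Control replicate 3 held the lowest value of 8 (22.2%), against 17.5% of all genes. The SD of the treated arrays was above that of the controls in 26 of the 36 genes (72.2%), against 51.2% of all genes. In 12 of the 36 genes (33.3%) BL-8040 replicate 3 lay at least 0.3 log2 units below the mean of the other 2 treated tumours, against 7.02% of all genes, a limit set after the values were seen. These 12 were SYNPR, SV2C, SNAP25, RAB3A, RAB3C, RIMS2, SYT1, SYT5, CPLX2, UNC13A, DNM1 and RUNDC3A, with genes of the vesicle membrane, the SNAREs, RAB3, calcium sensing, priming and retrieval among them. The gap was widest in RUNDC3A (-0.88) and RAB3C (-0.85). In VAMP2 alone of the 36 this tumour lay at least 0.3 above the other treated ones, with a gap of 0.34, against 4.28% of all genes. The highest value was in a control tumour in 26 of the 36 genes (72.2%), against 57.4% of all genes, and the lowest in 9 (25%), against 42.9%.

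**Figure D3:**
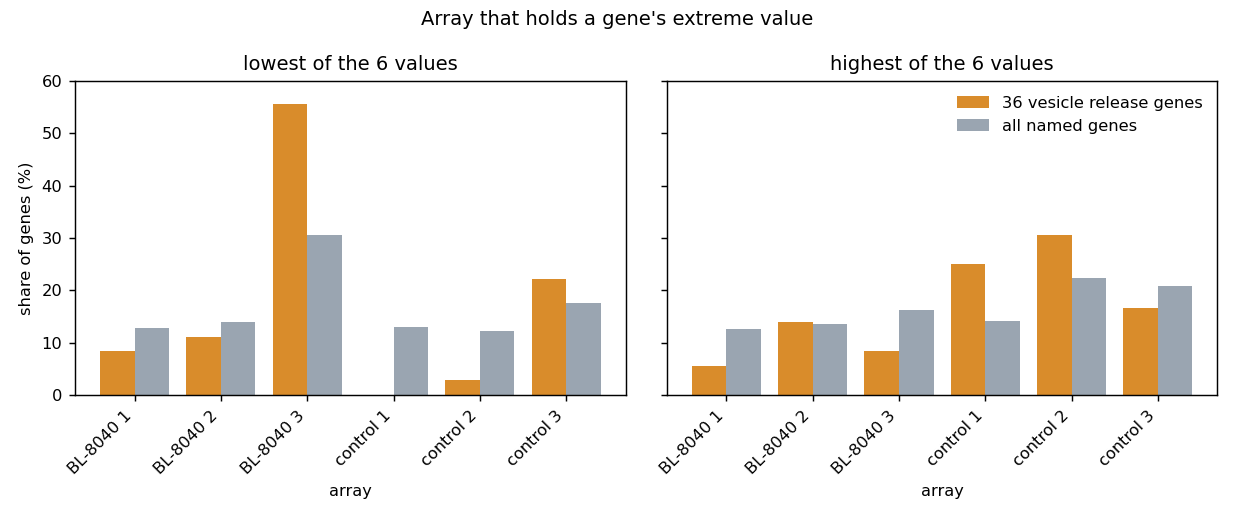
Share of genes whose lowest (left) or highest (right) of the 6 values falls on each array, for the 36 vesicle genes (orange) and all 18417 named genes (grey). BL-8040 replicate 3 holds the lowest value of 55.6% of the vesicle genes and of 30.5% of all genes.

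Other genes of the 36 did not share this dip. In SYN1, SYN2, SYN3, SV2A, SV2B, RAB3B, SYT7, SYT11, PCLO, SYNJ1 and AMPH the signal of BL-8040 replicate 3 lay 0.01 to 0.15 above the mean of BL-8040 replicates 1 and 2. With BL-8040 replicate 3 left out, 24 of the 36 genes were below 0, or 66.7%, against 54.6% of all genes. At an unadjusted limma p under 0.05, 4 were then lower (11.1%, against 3.89% of all genes), SYT4, CADPS2, AMPH and RUNDC3A. Without control replicate 2 the count was also 4, namely SYNPR, VAMP1, SYT4 and CADPS2 (3.14% of all genes), and without BL-8040 replicate 2 it was 9 (25%, against 5.51% of all genes). Treated values lay wholly below the controls in 6 of the 36 without BL-8040 replicate 3 (16.7%, against 13.5% of all genes). They did so in 13 without BL-8040 replicate 2 (36.1%, against 16.1%) and in 11 without control replicate 3 (30.6%, against 15.1%).

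**Figure D4:**
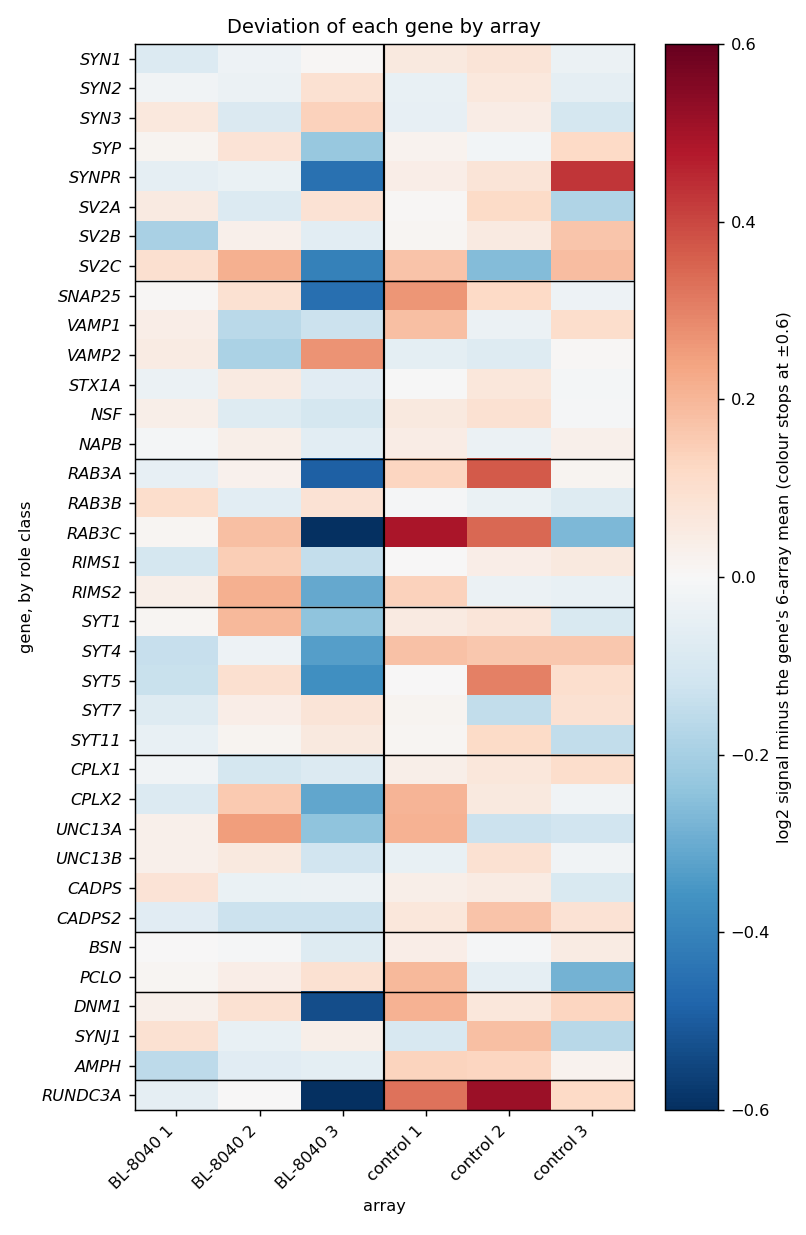
Log2 signal of each of the 36 genes minus its own mean over the 6 arrays, by array (columns, BL-8040 left of the line) and role class (blocks of rows). Blue cells, lower than the gene's mean, gather in the column of BL-8040 replicate 3, with RUNDC3A and RAB3C beyond the end of the colour scale; SYT4 is the row in which all 3 controls are evenly red.

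Other genes of the vesicle cycle were read from 3 lists that hold none of the 36. Of 46 further exocytosis genes, 43 were measured singly, and 28 were lower and 15 higher, with a median difference of -0.06. At an unadjusted limma p under 0.05, 3 were lower and 0 higher. The shares of all genes were 58.5% for a difference below 0, 5.08% for lower and 2.64% for higher at that p. RIMBP2, whose protein links RIM to calcium channels, was 4.94, 5.07 and 4.96 after BL-8040, against 5.39, 5.39 and 5.33 in controls. The groups lay well apart with little spread in either, at a mean signal of percentile 36.2 of all genes, below the median. The RIMBP2 difference was -0.38 ± 0.07 (SE), with an interval from -0.54 to -0.22, and its unadjusted p of 4.6e-04 was the 7th smallest of all genes, with an adjusted p of 0.644 (limma). It lay between -0.42 and -0.36 whichever array was left out. DOC2B, a calcium sensor for spontaneous release, differed by -0.39 ± 0.15 (SE) and by -0.22 without BL-8040 replicate 3. RAB27B, a GTPase of secretory granules, differed by -0.24 ± 0.11 (SE).

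Of 23 other vesicle proteins and transmitter transporters, 20 were measured singly, and 19 of them were lower, against 58.5% of all genes, with a median difference of -0.10. The exception, SYPL1, a widely expressed synaptophysin relative picked out after its value was seen, differed by 0.04. At an unadjusted limma p under 0.05, 2 were lower, against 5.08% of all genes: SLC18A3, the vesicular acetylcholine transporter, differed by -0.25 ± 0.08 (SE), and SLC17A7, a vesicular glutamate transporter, by -0.22 ± 0.08 (SE), both with groups that did not overlap, as in 9.05% of all genes. Their mean signals lay at percentiles 48.2 and 25.5 of all genes. Of 23 vesicle endocytosis genes, all measured, 15 were lower and 8 higher, with a median of -0.02. PACSIN1, a membrane-bending partner of dynamin, differed by -0.23 ± 0.09 (SE) and SYNJ2, the second synaptojanin, by 0.29 ± 0.12 (SE; 0.16 without BL-8040 replicate 3), each at an unadjusted limma p under 0.05 and an adjusted p of 0.644. In the exocytosis, vesicle protein and endocytosis lists, treated values lay wholly below the controls in 3 of 43, 3 of 20 and 1 of 23 genes, against 9.05% of all genes. They lay wholly above in 0, 0 and 3 (SYNJ2, ITSN1 and ITSN2), against 4.93% of all genes. None of the genes of these 3 lists passed the test.

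REST is a repressor that keeps many neuronal genes, several synaptic ones among them, silent outside neurons. REST was 6.64, 6.63 and 6.78 after BL-8040, against 6.55, 6.43 and 6.51 in controls. All treated values lay above all controls by a narrow gap, where 4.93% of all genes had treated values wholly above. The REST difference was 0.18 ± 0.08 (SE; interval from 0.01 to 0.35; limma adjusted p = 0.644), and 0.13 without BL-8040 replicate 3. Of the 9 genes of REST and its partners, 5 were higher and 4 lower, with a median difference of 0.00. A link between REST and the vesicle genes was not tested.

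The tumour identity and the other cells of the tumours were read from marker lists. The 10 measured markers of neuroblastoma and sympathetic neurons had mean signals between percentiles 49.2 and 99.9 of all genes, with MYCN at the top, and the 7 of the adrenal cortex lay at or below percentile 32.6. Markers of other cells were not all dim. The 6 fibroblast markers lay between percentiles 69.2 and 98.8, the 7 endothelial between 18.8 and 96.3 and the 7 myeloid between 13.8 and 83.3. Signal level alone therefore did not set the neuroblastoma list apart. Of the 10 neuroblastoma markers 9 stood lower in treated tumours, against 58.5% of all genes. The median difference was -0.18, and -0.12 without BL-8040 replicate 3, with a range from -0.64 in TH to 0.03 in MYCN. All 10 had their lowest value in BL-8040 replicate 3, against 30.5% of all genes. Relative to each gene's 6-array mean, the median of this list was -0.04, 0.05 and -0.19 in BL-8040 tumours 1, 2 and 3, against 0.09, 0.12 and 0.00 in the 3 control tumours. For 6 chromaffin and dense-core granule markers, of which 5 were lower, it was 0.01, 0.14 and -0.35 in the treated and 0.15, 0.17 and -0.08 in the control arrays. For the 36 vesicle genes it was 0.01, 0.02 and -0.11 in the treated and 0.04, 0.07 and 0.00 in the control arrays. The other vesicle lists were also lowest in BL-8040 replicate 3. Their medians there were -0.14 for vesicle proteins and transporters, -0.06 for exocytosis genes and -0.03 for endocytosis genes. Fewer neuroblastoma cells and less RNA of these genes per cell cannot be told apart in whole tumours.

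Markers of other cells did not all move with this. In BL-8040 replicate 3 the list median was 0.10 for 7 endothelial, 0.04 for 6 fibroblast, 0.03 for 7 myeloid and 0.02 for 7 adrenal cortex markers, and -0.10 for the 4 measured Schwann cell and glia markers. Over the other 5 arrays it lay between -0.08 and 0.06 for the endothelial, -0.07 and 0.09 for the fibroblast, -0.06 and 0.00 for the myeloid and -0.06 and 0.04 for the adrenal cortex list, and between -0.08 and 0.11 for the Schwann list. The genes within a list were mixed. PECAM1, CDH5 and VWF, 3 of the 7 endothelial markers, had their lowest value in BL-8040 replicate 3, as did 2 fibroblast markers, DCN and PDGFRB. So did 1 myeloid, 0 adrenal cortex and 2 Schwann cell markers, where 30.5% of all genes did. After BL-8040, 2 endothelial, 4 fibroblast, 4 myeloid, 5 adrenal cortex and 1 Schwann cell marker stood higher. Host cells are those of the mouse and the probes are human, so these lists measure host cells poorly. Their part in the lower vesicle genes was not tested.

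**Figure D5:**
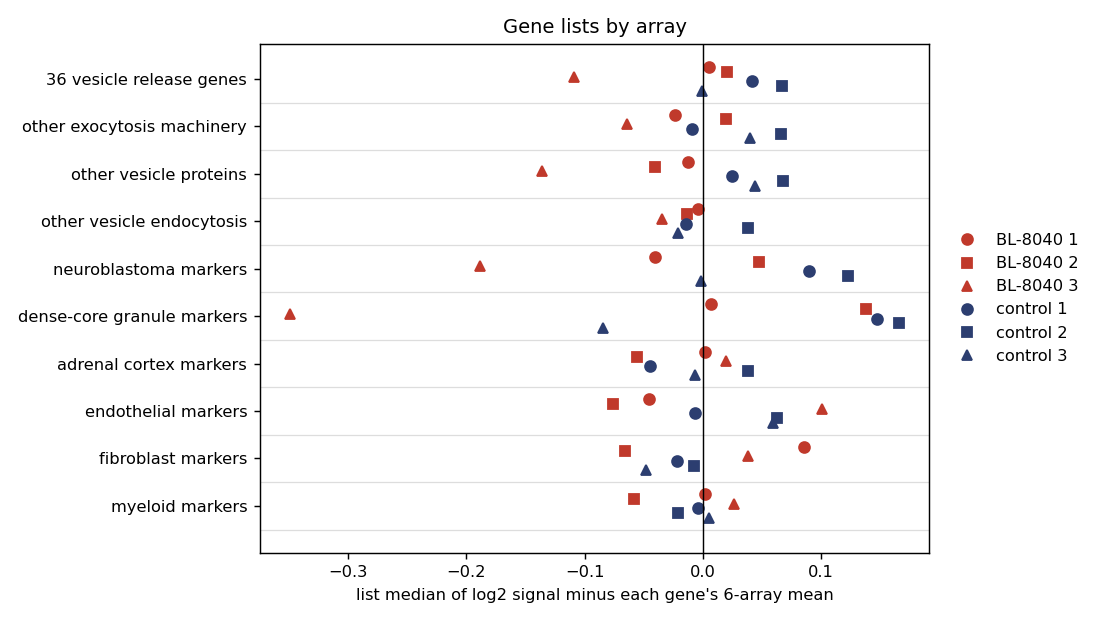
Median over each gene list of the log2 signal minus each gene's own 6-array mean, 1 point per array (BL-8040 red, control blue, shapes for replicates). BL-8040 replicate 3 lies lowest of the 6 arrays in the 36 vesicle genes (-0.11), the neuroblastoma markers (-0.19) and the dense-core granule markers (-0.35). It also lies lowest in the other vesicle proteins (-0.14), other exocytosis machinery (-0.06) and other vesicle endocytosis genes (-0.03). It lies highest in the endothelial markers (0.10). Of these 7 genes, EMCN, TEK and CLDN5 have their highest value there, and 3 others, PECAM1, CDH5 and VWF, their lowest.

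BL-8040 replicate 3 also stood apart over all genes. On the first principal component (37.2% of the variance) it lay at -22.7, with the other arrays between -0.743 and 10.1. BL-8040 replicates 1 and 2 lay at -0.743 and 2.12, and control replicates 1, 2 and 3 at 3.71, 10.1 and 7.54. All treated tumours thus lay below all controls, a separation that was not tested. The correlation of any 2 arrays over genes was at least 0.992. The number of arrays limits the precision, and for the median gene the interval spanned 0.197 log2 units on either side.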

How the data were processed

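Tumour RNA (200 ng per array, per the labels' protocols) of 3 BL-8040 and 3 control mice was hybridised to the Affymetrix Human Gene 1.0 ST array. As organism the labels name the host, mouse, though tumour cells and probes are human, and their treatment text is identical for both groups. The authors deposited 1 table of log2 values, from 1.08 to 13.2; the scale was read from the values. The submitters' processing notes name Partek 6.6; which background correction, normalization and probe summary it ran was not given in the sources used here. No scanner files or detection calls were used here, and signal strength is given as a percentile of all genes' 6-array means.

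Of 33297 probe sets, 19460 with exactly 1 gene symbol in the platform annotation were kept, the brightest per gene, which gave 18417 genes; 1754 had several symbols and 12083 none. The groups were compared without a replicate block in R 4.3.3 by a two-sided limma 3.58.1 fit (lmFit, then eBayes), with Benjamini-Hochberg adjustment across the 18417 genes. Each difference is BL-8040 minus control, SE is moderated, and folds are antilogs. The fit was checked on simulated arrays. For 3 against 3 arrays, the smallest two-sided exact permutation p is 0.1.

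The 36 genes and all other lists were chosen with earlier results of these data known. Described in full were RUNDC3A, genes with non-overlapping groups or an unadjusted p under 0.05, and the largest difference of each role class; of other vesicle lists, up to 4 genes with the smallest p under 0.05. The lists hold REST and its partners, further exocytosis genes, vesicle proteins, endocytosis genes, and markers of neuroblastoma, dense-core granules, Schwann cells, adrenal cortex, endothelium, fibroblasts and myeloid cells. A gene read only by probe sets with several symbols or none was not analysed here. Alternatives were 2 filters on dim genes, the mean of probe sets, quantile normalization, median centring, array weights, robust moderation with a variance trend, the replicate block, a threshold of 0.1, leaving out RUNDC3A, and leaving out each array.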

Additional observations from a re-analysis of the deposited data

How the results depend on the processing

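No gene of the 18417 and none of the 36 was called by limma under any alternative run, a threshold of 0.1 included. The replicate numbers of the titles are not known to pair animals: deviations of same-numbered tumours correlated at -0.04, 0.02 and 0.08. With the replicate block 7 of the 36 genes were lower at an unadjusted p under 0.05, against 6 without it, and 0 genes were called. Over all 18417 genes, 1488 had such a limma p in either direction with the block and 1422 without it. The share of all genes that were lower at that p with the block is not given here. Filters on dim genes (at or above the median signal, or log2 6) kept 18 of the 36, and 11 of these were lower. At an unadjusted limma p under 0.05, 2 were lower (11.1%, against 3.93% of all genes at or above the median signal). Treated values lay wholly below the controls in 1 (5.56%, against 8.16%). BL-8040 replicate 3 held the lowest value of 11, and the median of the 18 there was -0.17. All-gene shares for the other counts under the filters are not given here. Array weights turned the sign of SYN2 (-0.010), SV2C (0.079), RIMS2 (0.039), SYT1 (0.023), SYT11 (-0.023) and UNC13B (0.0025). Leaving out 1 array gave a median of the 36 between -0.12 and -0.022, 23 to 30 lower genes, 4 to 9 lower at an unadjusted p under 0.05, 6 to 13 with treated values wholly below and 0 to 3 wholly above the controls, and 8 to 14 paralogue pairs with groups apart. It also turned the sign of 14 genes near 0: SYN2 (-0.017 to 0.060), SYP (-0.15 to 0.0080), SV2A (-0.043 to 0.11), SV2C (-0.21 to 0.12), VAMP2 (-0.026 to 0.20), RIMS2 (-0.16 to 0.11), SYT1 (-0.13 to 0.093), SYT7 (-0.039 to 0.079), SYT11 (-0.054 to 0.077), UNC13A (-0.10 to 0.15), UNC13B (-0.050 to 0.037), CADPS (-0.039 to 0.031), PCLO (-0.022 to 0.22) and SYNJ1 (-0.015 to 0.16). The cause was not tested. The other differences of the 36 kept their sign under every alternative run. Groups separate more easily with an array left out: the share of all genes wholly below the controls was 9.05% with all arrays. It was 13.5% without BL-8040 replicate 3, 16.1% without BL-8040 replicate 2 and 15.1% without control replicate 3. The matching shares for genes wholly above and for gene pairs are not given here.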

Other observations

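Paralogues share much of their sequence and role, and the log2 ratio of a pair within 1 array cancels any shift common to that array. For the 26 pairs that the 11 families among the 36 genes allow, these ratios were compared between BL-8040 and control tumours with a two-sided exact permutation test, a comparison added after the values were seen. In 8 of the 26 pairs (30.8%) the groups did not overlap, against 13.6% of all pairs that the named genes can form. Each of the 8 had an exact p of 0.1, the smallest that 3 against 3 arrays can give, and a Benjamini-Hochberg adjusted p over the 26 pairs of 0.325. Pairs that share a gene are not independent, and SYT4 is in 3 of the 8. SYNPR and CADPS2 are in others. These genes already had non-overlapping groups when read singly, so their pairs add no separate result to the share of 30.8%.

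SYT1 minus SYT5 was 2.47, 2.43 and 2.46 after BL-8040, against 2.38, 2.10 and 2.14 in controls. All 3 treated tumours were close to each other here, BL-8040 replicate 3 included, although both genes were lowest in that tumour. The ratio differed by 0.25, BL-8040 minus control, and by 0.24 without that array. SYT1 minus SYT4 was 4.57, 4.64 and 4.51 after BL-8040, against 4.30, 4.33 and 4.17 in controls, a difference of 0.31. SYT4 also stood apart from SYT7 (-0.36) and SYT11 (-0.35), with -0.25 and -0.24 without BL-8040 replicate 3. SYT4 and SYT5 did not separate from each other: their ratio differed by -0.06 and the groups overlapped.

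Among the other families, SYP minus SYNPR differed by 0.28, CADPS minus CADPS2 by 0.22, VAMP1 minus VAMP2 by -0.25 and SYN1 minus SYN2 by -0.09. The VAMP difference was -0.12 without BL-8040 replicate 3. RAB3A minus RAB3C differed by 0.04 (SD 0.22 in BL-8040 and 0.32 in control arrays), and its groups overlapped.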
